A study of Mus musculus with 60 samples.

Results

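The 9 genes described here encode proteins of families known to read methylated DNA: *Mbd1*, *Mbd2*, *Mbd3*, *Mbd4* and *Mbd5* of the methyl-CpG binding domain family, *Uhrf1* and *Uhrf2*, which carry an SRA domain, and the zinc finger genes *Zbtb4* and *Zbtb38*. They were chosen by name for this role, with earlier results of these data known, and all 9 were found among the 46480 genes counted. Their RNA was measured by RNA-Seq in the dorsal and ventral dentate gyrus (DG), a subfield of the hippocampus, of mice kept in standard housing (SH) or in an enriched environment (EE). The comparisons ask whether the reader genes differ along the dorsal-ventral axis and whether housing changes them. All groups were male C57BL6J mice, weaned on day 22 into their housing and collected at an age of 80 days, and the labels name no transgene or drug. SH cages were small and held a few males without toys, while EE cages were large, held more males, and had running wheels and objects that were exchanged each week.

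There were 5 samples for each combination of region and housing, each a pool of punches of whole tissue from several mice, and the study took both regions from the same mice. The labels do not tie replicate numbers to mice, and samples with the same number in one housing were taken to be both regions of one pool, since *Xist* RNA stood out under number 3 in both regions of SH. Each sample is a mean over animals and over neurons, glia and other cells, and fewer cells of a type cannot be told apart from less RNA per cell. SH replicate 3 was left out of the tests in both regions because it had 789 (dorsal) and 308 (ventral) fragments of *Xist*, an RNA made from the inactive X chromosome of females, where each of the other 18 samples had at most 16. The 18 samples tested had 22919364 to 28301861 fragments counted on genes. Among the marker lists, with edgeR, where 29.0% of all genes were higher and 29.3% lower in dorsal DG, 5 of 6 granule neuron, 5 of 5 immature neuron and 7 of 8 cycling cell genes were higher in dorsal DG, and 6 of 6 choroid plexus genes were lower there. For inhibitory neurons 1 of 5 was higher and 2 lower in dorsal DG, for astrocytes 3 of 6 and for microglia 1 of 6 were lower, for oligodendrocytes 1 of 6 was higher, and for endothelium 0 of 5 passed. The granule neuron list summed to 2480 to 3022 CPM (counts scaled to the library total) in dorsal and 2069 to 2850 CPM in ventral samples, and the immature neuron list to 106 to 129 CPM and 73.0 to 95.1 CPM. The granule neuron sum was mostly *Snap25*, with a median of 1892 CPM against 131 to 197 CPM for each other gene. *Snap25* was the 1 gene of this list that did not pass (log2 -0.09), and the median log2 difference of the list, dorsal minus ventral, was 0.70. The summed level of the choroid plexus list was 22.7 to 208 CPM in dorsal and 389 to 1420 CPM in ventral samples, and no marker of any list was at 0 in any sample. The part of these cells in the differences below was not tested.

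Methylation of cytosine in CpG dinucleotides is recognised by reader proteins, which bring repressors, chromatin remodelling enzymes, DNA repair enzymes or the maintenance methyltransferase to the methylated site. Neurons carry much DNA methylation and keep rewriting it after their last division, which makes readers, and not only the enzymes that write the mark, part of how methylation acts in the brain. In the DG, where neurons are born throughout life, the loss of *Mbd1* in mice is known to impair adult neurogenesis.

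The readers were expressed at very different levels. Per transcript length, in deposited TPM (scaled for transcript length and library total), *Mbd3* was the highest at a mean of 16.8 ± 2.50 (SD, n = 18), followed by *Mbd2* (12.6 ± 2.24), *Zbtb4* (11.8 ± 2.02), *Uhrf2* (11.01 ± 2.59), *Mbd5* (9.98 ± 2.61), *Zbtb38* (7.87 ± 2.26), *Mbd1* (3.36 ± 0.67), *Mbd4* (1.56 ± 0.69) and *Uhrf1* (0.25 ± 0.10). The mean of *Mbd3* was 66.0 times that of *Uhrf1*, which stayed below 1 TPM in all 18 samples. Within each sample *Mbd3* was above *Mbd2*, and the steps from *Mbd5* down to *Uhrf1* also kept their order in 18 of 18 samples. The middle of the order was not resolved: *Mbd2* was above *Zbtb4* in 15 of 18 samples (log2 ratio 0.09 ± 0.09 SD), *Zbtb4* above *Uhrf2* in 12 (0.12 ± 0.19) and *Uhrf2* above *Mbd5* in 16 (0.15 ± 0.11). A few small structural RNAs took 57.9% to 71.9% of all TPM, a share that differed between samples and also enters the SDs above. TPM was therefore used to rank genes and not to compare groups. It also served as a minimum level for the genes compared with the readers at the end. Other levels of single genes below are CPM after TMM normalization, while the sums of marker lists are CPM of the library total.

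**Figure D1:**
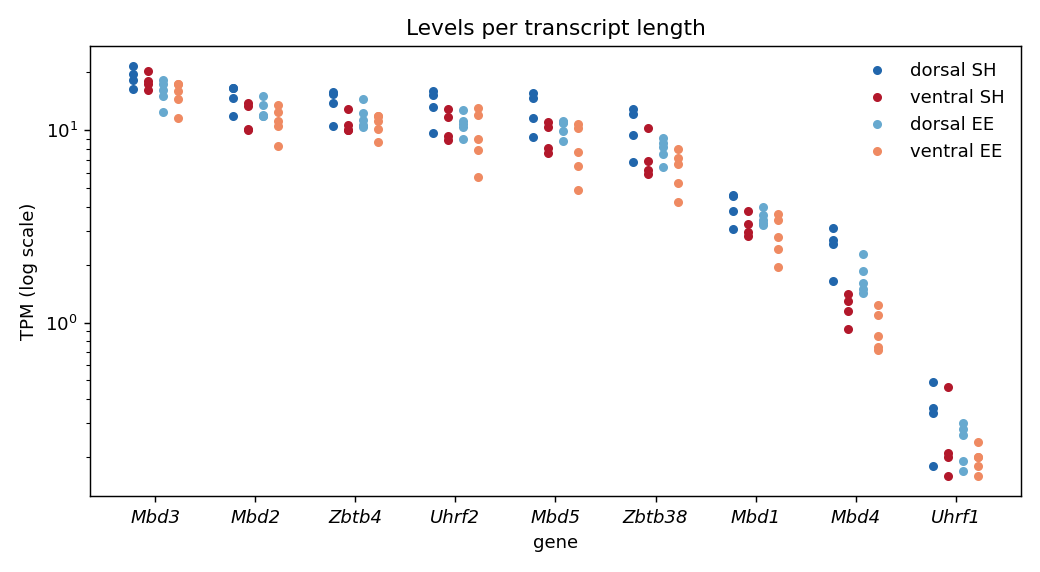
Levels of the 9 reader genes per transcript length (TPM, log axis), one point for each of the 18 samples, coloured by group, with genes ordered by their mean. *Mbd3* was highest in every sample, and *Uhrf1* stayed between 0.16 and 0.49 TPM.

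Most of the readers differed between the regions, and most of these were higher in dorsal DG. With edgeR's quasi-likelihood test of the mean dorsal to ventral difference over both housings, 7 of the 9 passed an adjusted p of 0.05 (Benjamini-Hochberg over 17040 genes), against 58.4% of all genes tested. *Mbd1*, *Mbd2*, *Mbd4*, *Mbd5*, *Uhrf1* and *Zbtb38* were higher in dorsal DG, a direction in which 29.0% of all genes passed, and *Mbd3* was higher in ventral DG, as were 29.3% of all genes. A difference of over 20% was seen for *Mbd4*, *Uhrf1*, *Mbd5* and *Zbtb38*, that is 4 of 9, against 32.7% of all genes. The median log2 difference of the 9 was 0.18, where that of all genes was -0.0046, but their median size without sign, 0.18, was close to the 0.19 of all genes. 

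**Figure D2:**
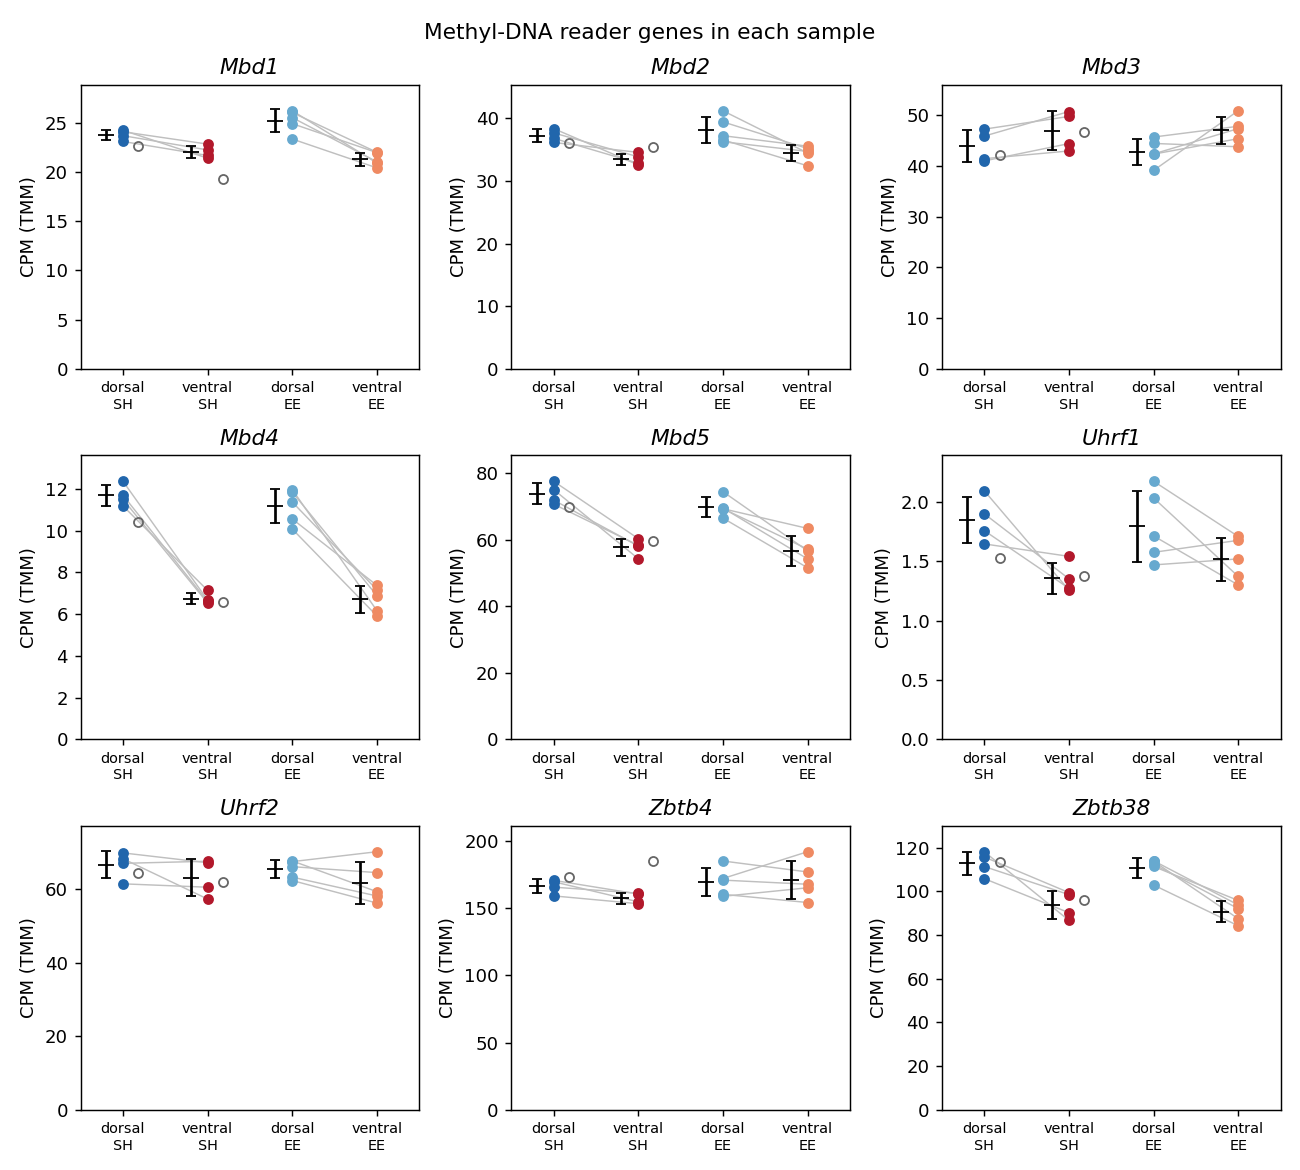
Level of each reader gene in every sample (CPM after TMM normalization, axes from 0) by group, with lines joining both regions of a pool, bars for the mean and SD of a group, and open circles for the left-out SH replicate 3. *Mbd4* stands at 10.1 to 12.4 in dorsal and 5.92 to 7.38 in ventral samples, while *Uhrf2* and *Zbtb4* overlap.

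*Mbd4*, a glycosylase that removes thymine or uracil mispaired with guanine at CpG sites, had the largest difference of the 9. In dorsal DG it was at 12.4, 11.2, 11.7 and 11.5 CPM in the 4 SH samples and at 12.0, 10.6, 10.1, 11.4 and 11.9 CPM in the 5 EE samples. In ventral DG the SH samples had 6.67, 7.14, 6.61 and 6.54 CPM and the EE samples 6.17, 7.38, 5.92, 7.17 and 6.89 CPM. Every dorsal sample was above every ventral sample in both housings, so that all 9 pools had more in their dorsal sample however samples are paired. The level was 1.70-fold higher in dorsal DG (log2 difference 0.77, SE 0.05, 95% interval of the fold 1.58 to 1.84, edgeR adjusted p = 3.41e-11). The difference was 1.74-fold in SH and 1.67-fold in EE. The gene lies on chr6:115840697-115853371 (mm10, minus strand) and overlaps an antisense gene, *Gm44206*, but counting used the strand, and at most 2 fragments in any sample were on the strand opposite to *Mbd4*.

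*Mbd5* and *Zbtb38* were the next readers with a clear dorsal excess. *Mbd5*, whose protein binds heterochromatin and whose loss in humans is linked to intellectual disability, had 75.0, 71.9, 70.6 and 77.5 CPM in dorsal SH and 69.5, 66.5, 74.4, 69.3 and 69.3 CPM in dorsal EE. In ventral DG it had 54.2, 58.0, 58.3 and 60.3 CPM in SH and 54.2, 51.5, 56.6, 57.1 and 63.4 CPM in EE. The lowest dorsal sample was above the highest ventral one, and the difference was 1.26-fold (log2 0.33, SE 0.04, adjusted p = 1.24e-07).

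*Zbtb38*, which encodes a zinc finger repressor that binds methylated DNA, had 118, 106, 111 and 116 CPM in dorsal SH and 114, 103, 112, 111 and 114 CPM in dorsal EE. Its ventral samples had 86.7, 90.2, 98.5 and 99.4 CPM in SH and 87.5, 84.3, 92.1, 95.8 and 93.8 CPM in EE. Again no dorsal sample reached down to a ventral one, and the difference was 1.21-fold (log2 0.28, SE 0.04, adjusted p = 1.04e-06). *Mbd5* shares bases with *Orc4* and with the pseudogenes *Gm13510* and *Gm13509* on its own strand, and *Zbtb38* with the antisense gene *A930006L05Rik*, with at most 25 and 30 opposite-strand fragments in a sample.

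*Mbd1*, which binds methylated CpGs and recruits the histone methyltransferase Setdb1, differed less. It had 24.2, 23.7, 23.1 and 24.1 CPM in dorsal SH and 23.4, 26.2, 25.5, 24.9 and 26.0 CPM in dorsal EE, against 21.4, 22.2, 21.7 and 22.8 CPM in ventral SH and 20.4, 20.9, 21.0, 22.0 and 22.0 CPM in ventral EE. The difference was 1.13-fold (log2 0.18, SE 0.03, adjusted p = 8.70e-05). *Mbd2*, the reader that ties methylated DNA to the NuRD corepressor complex, had 36.2 to 41.2 CPM in dorsal (median 37.2, n = 9) and 32.4 to 35.6 CPM in ventral samples (median 34.5, n = 9), a 1.11-fold difference (log2 0.15, SE 0.03, adjusted p = 3.96e-04). For both genes every dorsal sample was above every ventral one, so that 9 of 9 pools were higher in dorsal DG however samples are paired. With *Mbd4*, *Mbd5* and *Zbtb38* this makes 5 of the 9 readers with all dorsal samples above all ventral samples, which held for 9.51% of all genes tested. For *Mbd1* this depends on leaving out SH replicate 3. Its dorsal sample had 22.7 CPM of *Mbd1*, below the 22.8 CPM of ventral SH replicate 5.

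*Mbd3*, a core subunit of NuRD that has largely lost the affinity of its family for methylated CpGs, was the one reader that was higher in ventral DG. It had 45.9, 47.3, 41.0 and 41.5 CPM in dorsal SH and 45.7, 39.2, 42.4, 44.5 and 42.4 CPM in dorsal EE. The ventral samples had 50.8, 49.8, 44.5 and 43.0 CPM in SH and 47.9, 50.9, 47.4, 43.8 and 45.4 CPM in EE. The regions overlapped, but 8 of 9 pools had more in the ventral sample. The change was small, 1.08-fold (log2 -0.12, SE 0.04, adjusted p = 0.0247), and without EE replicate 2, EE replicate 3 or SH replicate 1 it no longer passed (adjusted p of 0.0641, 0.0515 and 0.0603). With the replicate block, a term for the pool that pairs both regions of one number, the adjusted p was 0.00847 at the same size (log2 -0.12).

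*Uhrf1*, which binds hemimethylated DNA behind the replication fork and brings Dnmt1 to it, was scarce, with 31 to 59 fragments in a sample. It had 1.76, 1.65, 2.09 and 1.90 CPM in dorsal SH and 2.17, 1.57, 2.03, 1.71 and 1.47 CPM in dorsal EE, and 1.27, 1.54, 1.26 and 1.35 CPM in ventral SH and 1.71, 1.68, 1.37, 1.30 and 1.52 CPM in ventral EE. Its regions overlapped and 7 of 9 pools were higher in dorsal DG, for a difference of 1.27-fold with a wide interval of 1.09 to 1.47 (log2 0.34, SE 0.10, adjusted p = 0.0066). The cycling cell markers, with which *Uhrf1* shares its known expression in S phase, were summed at 29.6 to 34.9 CPM in dorsal and 21.5 to 26.8 CPM in ventral samples. These sums were not scaled by TMM, and the part of cycling cells in the *Uhrf1* difference was not tested. *Uhrf2*, whose SRA domain also binds hydroxymethylcytosine, had 61.4 to 69.8 CPM in dorsal (median 66.98, n = 9) and 56.2 to 70.1 CPM in ventral samples (median 60.5, n = 9). It did not pass (log2 0.08, SE 0.04, adjusted p = 0.12), but with the replicate block the adjusted p was 0.0373 at the same size (log2 0.08). *Zbtb4*, the other zinc finger reader, had 159 to 185 CPM in dorsal and 153 to 192 CPM in ventral samples, and its difference of log2 0.03 had an interval from -0.05 to 0.11 (adjusted p = 0.508).

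**Figure D3:**
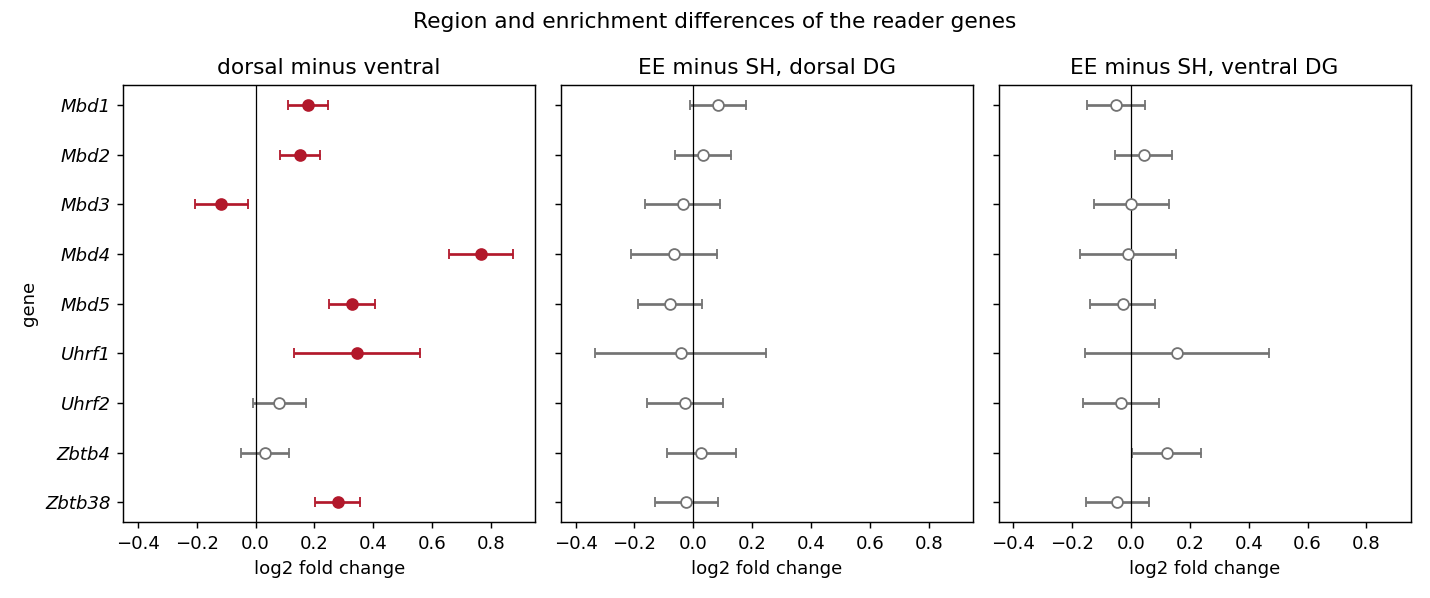
Log2 differences of the 9 readers with 95% intervals, for dorsal minus ventral DG and for EE minus SH in each region, with filled red points where the edgeR adjusted p was under 0.05. In the first panel 7 readers passed, led by *Mbd4* at 0.77, and none passed in the EE panels.

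Tested within each housing, 5 readers were higher in dorsal DG in SH (*Mbd2*, *Mbd4*, *Mbd5*, *Uhrf1* and *Zbtb38*) and 5 in EE (*Mbd1*, *Mbd2*, *Mbd4*, *Mbd5* and *Zbtb38*), against 20.9% and 22.9% of all genes in that direction. *Mbd1* differed by log2 0.11 in SH (SE 0.05, edgeR adjusted p = 0.0778) and by 0.24 in EE (SE 0.04, adjusted p = 1.03e-04). *Uhrf1* differed by log2 0.44 in SH (SE 0.15, adjusted p = 0.0239) and by 0.24 in EE (SE 0.14, adjusted p = 0.151). These calls do not show that the housings differ, since the interaction of region and housing, given with the EE effects, did not pass for either gene. The count in SH fell to 3 without SH replicate 1, where *Uhrf1* and *Mbd2* no longer passed, the latter with an adjusted p of 0.0938. In EE *Mbd2* did not pass without EE replicate 1 (edgeR adjusted p = 0.0547). With all 20 samples *Mbd1* also passed in SH (adjusted p = 0.0260) and *Mbd3* in EE. With the replicate block *Mbd3* also passed in EE, with a log2 difference of -0.14 (adjusted p = 0.0236).

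To show the DNA in front of the readers at the extremes of this axis, the 250 bases before the RefSeq start of *Mbd4*, the most dorsal, and of *Mbd3*, the one ventral reader, are printed 5′ to 3′ on the strand of the gene (RefSeq, GRCm38.p6), with each CpG, the dinucleotide at which most DNA methylation lies, in capitals. That of *Mbd4* is chr6:115853342-115853591 and that of *Mbd3* is chr10:80399532-80399781, both on the minus strand.
Mbd4: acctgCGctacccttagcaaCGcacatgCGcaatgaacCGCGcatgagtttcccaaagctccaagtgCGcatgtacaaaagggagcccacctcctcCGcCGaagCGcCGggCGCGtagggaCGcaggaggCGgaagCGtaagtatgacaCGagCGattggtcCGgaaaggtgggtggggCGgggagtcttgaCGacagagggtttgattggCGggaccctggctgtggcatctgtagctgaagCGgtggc
Mbd3: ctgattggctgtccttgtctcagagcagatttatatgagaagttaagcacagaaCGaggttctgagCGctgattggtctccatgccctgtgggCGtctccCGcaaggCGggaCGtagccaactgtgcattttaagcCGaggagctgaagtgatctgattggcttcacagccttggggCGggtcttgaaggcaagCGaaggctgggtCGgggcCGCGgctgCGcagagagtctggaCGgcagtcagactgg
The window of *Mbd4* holds 22 CpGs and that of *Mbd3* 14, where the median of 32851 promoter windows of the same length was 6. The promoter sequences used here held 11 such windows for 7 of the readers (*Mbd1* and *Mbd2* were not analysed here), with 4 to 31 CpGs, and 9 of the 11 were above that median. The hexamer CAGATG, read on both strands and known as an E-box form bound by neurogenic factors such as Neurod1, occurred in 3 of the 11 windows, that of *Mbd4* and 2 of *Zbtb38*, and in 14.4% of all windows.

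Enrichment changed none of the readers detectably. In dorsal DG 0 of 9 passed with edgeR, against 0.716% of all genes (122 genes, or 243 with the replicate block), and 0 of 9 had an unadjusted p under 0.05, against 8.81%. The EE minus SH log2 differences ran from -0.08 (*Mbd5*, SE 0.05, adjusted p = 0.725) to 0.08 (*Mbd1*, SE 0.05, adjusted p = 0.655), with a median of -0.03. *Mbd5* was lower in EE in 4 of 4 pairs of EE and SH samples with the same number, and *Mbd2* higher in 4 of 4. The pairs of each other reader went both ways. How many of all genes agree in 4 of 4 pairs was not counted, so no effect is read from this. With the replicate block *Mbd5* was at log2 -0.09 with an adjusted p of 0.41. Apart from *Uhrf1*, the 95% intervals lay between log2 -0.21 and 0.18, so that within the spread of these pools a change of over 20% lay outside the intervals of the other readers. For *Uhrf1* the interval was -0.33 to 0.25 and holds larger changes.

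In ventral DG 0 of 9 passed as well, against 0.246% of all genes (42 genes, or 105 with the replicate block), and 1 of 9 had an unadjusted p under 0.05, against 7.58%. That gene was *Zbtb4*, with 161, 161, 155 and 153 CPM in SH and 177, 192, 168, 154 and 165 CPM in EE. Its EE samples reached higher but overlapped those of SH, and the difference of log2 0.12 (SE 0.06, unadjusted p = 0.0431) had an adjusted p of 0.646. The ventral sample of the left-out SH replicate 3 had 185 CPM of *Zbtb4*, within the range of EE. The remaining readers ranged from log2 -0.05 (*Mbd1*, SE 0.05) to 0.16 (*Uhrf1*, SE 0.15), and without *Uhrf1* all intervals lay between -0.17 and 0.24. *Uhrf1* was higher in EE in 4 of 4 pairs of the same number, while the pairs of each other reader went both ways. Here too the share of all genes was not counted.

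Whether the EE effect differed between the regions was tested as an interaction, in which 0 of 9 readers passed with edgeR, against 0.00587% of all genes, and 0 of 9 had an unadjusted p under 0.05, against 3.25%. The smallest unadjusted p was that of *Mbd1*, 0.0545 (log2 0.13, SE 0.07, adjusted p = 1.00), whose EE mean was 25.2 ± 1.16 CPM (SD, n = 5) against 23.8 ± 0.51 in SH (n = 4) in dorsal DG, and 21.3 ± 0.70 against 22.0 ± 0.63 in ventral DG. The interaction of *Uhrf1* was log2 -0.20 with an interval from -0.63 to 0.23.

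The proteins with which the readers work were described from lists of their known partners. Of 51 partner genes 36 differed between the regions with edgeR (70.6%, against 58.4% of all genes), of which 28 had more RNA in dorsal and 8 in ventral DG, and 0 passed in either EE comparison or in the interaction. In the 6 lists together, 3 of 51 genes in dorsal DG had an unadjusted edgeR p under 0.05 for EE, against 8.81% of all genes. In ventral DG 2 of 51 did, against 7.58%. The counts of each list between the regions stand against 29.0% of all genes that were higher and 29.3% that were lower in dorsal DG. In single lists 60.0% to 77.8% of the genes passed in either direction.

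Of the 13 subunits of NuRD, the nucleosome remodelling and deacetylase complex of *Mbd2* and *Mbd3*, 7 had more RNA in dorsal and 3 in ventral DG, with a median log2 difference of 0.12. The scaffold gene *Gatad2b* (log2 0.60, SE 0.05, edgeR adjusted p = 8.09e-10) and the remodelling ATPase *Chd4* (0.37, SE 0.04, adjusted p = 3.25e-07) were highest on the dorsal side. On the ventral side were *Chd5* (-0.43, SE 0.04, adjusted p = 2.69e-08), the ATPase paralogue expressed in neurons, and *Cdk2ap1* (-0.29, SE 0.06, adjusted p = 2.53e-04). In SH, *Chd4* was at 304 ± 28.4 CPM on the dorsal and 239 ± 19.9 CPM on the ventral side (SD, n = 4), and *Chd5* at 129 ± 6.40 and 166 ± 11.3 CPM, so these 2 ATPases differed in opposite directions. Their paralogue *Chd3* had more RNA than either, at 848 ± 53.5 and 838 ± 67.6 CPM in SH. It did not differ detectably between the regions (log2 -0.04, SE 0.06, edgeR adjusted p = 0.569).

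Among 5 partners of *Mbd1*, 3 were higher in dorsal DG and 0 in ventral DG (median 0.19). These 60.0% are close to the 58.4% of all genes that passed in either direction. They were led by *Chaf1a* (log2 0.49, SE 0.08, edgeR adjusted p = 2.22e-05), a subunit of the chromatin assembly factor, and *Atf7ip* (0.37, SE 0.04, adjusted p = 4.83e-08), the bridge to Setdb1. Among 9 base excision and mismatch repair partners of *Mbd4*, 5 had more RNA in dorsal and 1 in ventral DG (median 0.22). Together these were 66.7% of the list, against 58.4% of all genes. The 5 with more in dorsal DG were led by the uracil glycosylase *Ung* (0.44, SE 0.11, adjusted p = 0.00115) and *Parp1* (0.35, SE 0.04, adjusted p = 4.99e-07). *Ung* was scarce, with group means of 1.23 to 1.75 CPM. The repair polymerase *Polb* was lower in dorsal DG (-0.34, SE 0.04, adjusted p = 8.21e-08). None of the 9 had a log2 difference as large as the 0.77 of *Mbd4* itself. Of 9 genes of the PR-DUB deubiquitinase complex, with which *Mbd5* associates, 6 were higher in dorsal DG and 1 in ventral DG (median 0.25), with *Foxk1* (0.51, SE 0.04, adjusted p = 3.13e-10) and *Asxl3* (0.41, SE 0.06, adjusted p = 1.09e-05) on one side and the catalytic subunit *Bap1* (-0.13, SE 0.03, adjusted p = 0.00171) on the other.

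Of 7 partners of the Uhrf proteins, 4 rose toward dorsal and 1 toward ventral DG (median 0.15). The maintenance methyltransferase *Dnmt1* (log2 0.29, SE 0.04, edgeR adjusted p = 1.05e-05) and the histone methyltransferase *Ehmt1* (0.26, SE 0.03, adjusted p = 3.24e-08) were higher in dorsal DG, while *Ehmt2*, which forms a dimer with Ehmt1, was lower (-0.11, SE 0.04, adjusted p = 0.0188). Of 8 corepressors of zinc finger readers, 3 had more RNA in dorsal and 2 in ventral DG (median 0.05), together 62.5% of the list, which is close to the 58.4% of all genes. The nuclear receptor corepressor *Ncor1* (0.29, SE 0.03, adjusted p = 7.76e-08) and *Sin3a* (0.23, SE 0.04, adjusted p = 1.93e-05), a scaffold of deacetylase complexes, stood against *Ctbp2* (-0.28, SE 0.03, adjusted p = 1.75e-07) and the deacetylase *Hdac3* (-0.14, SE 0.03, adjusted p = 6.30e-04).

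**Figure D4:**
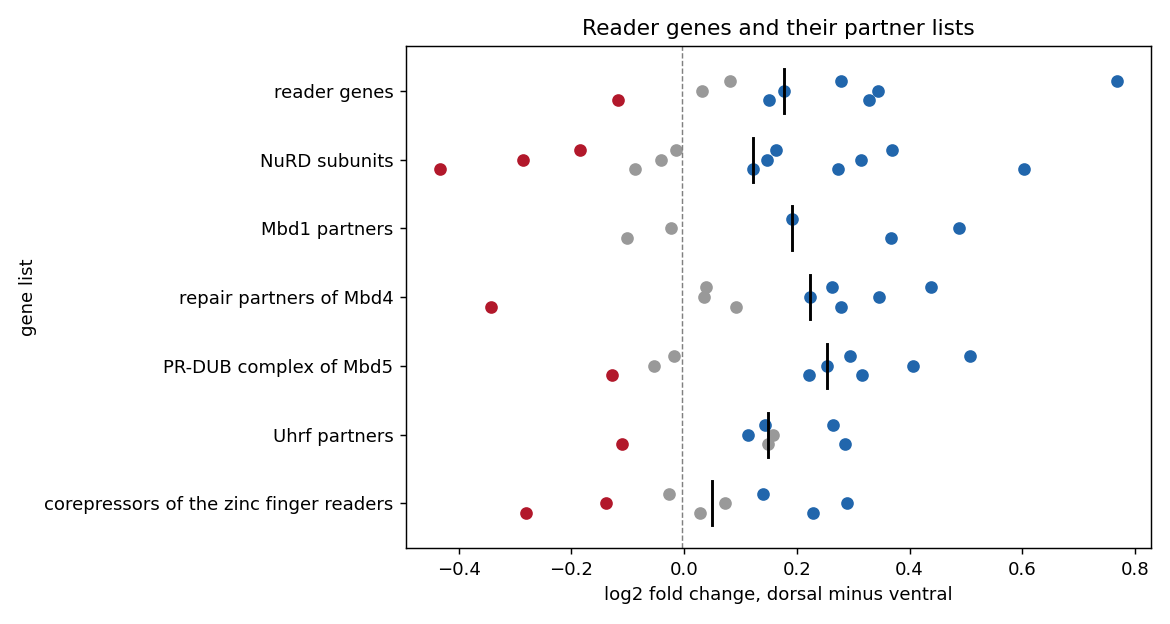
Log2 differences (dorsal minus ventral) of the 9 readers and of the genes in 6 lists of partners, with blue points for genes higher in dorsal DG, red for genes higher in ventral DG (edgeR adjusted p under 0.05), grey for the rest, black bars for list medians and a dashed line for the median of all genes. Every list had its median above that of all genes, from 0.05 to 0.25.

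How the readers varied together was described by Pearson's r of log2 CPM over the 18 samples, which share pools, libraries and region, so that no p is given. Over all samples *Mbd5* and *Zbtb38* were most alike (r = 0.95). After removal of the 4 group means, *Zbtb38* remained close to *Uhrf2* (0.84) and *Mbd5* (0.72), and *Zbtb4* to *Uhrf1* (0.66). *Uhrf2* ran opposite to *Mbd3* (-0.69) and to *Zbtb4* (-0.66) within the groups. *Mbd4*, in contrast, had values between -0.11 and 0.26 with the other 8 once group means were removed. The pairs named within the groups were picked as the strongest among the readers. How high r is between ordinary pairs of genes was not computed, and *Uhrf1* had only 31 to 59 fragments in a sample.

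Of 12201 genes with TPM above 1 in at least 3 samples, those most like each reader were listed in the same way. *Zbtb38* was closest to *Enc1*, *Zfp281* and *Rbfox3* (r = 0.99 each), *Mbd5* to *Arid2*, *Gatad2b* and *Tanc2* (0.98 each), and *Mbd4* to *Kalrn*, *Bcl11b* and *Rasal2* (0.98 each). Within the groups the likeness of *Mbd4* to its 3 genes was 0.46 to 0.48, that of *Mbd5* 0.85 to 0.94 and that of *Zbtb38* 0.95 to 0.96. *Mbd1* was closest to *Lpcat4*, *Strada* and *Lmtk3* (0.93 to 0.94), *Mbd2* to *Rcan2*, *Sh3bgrl2* and *Cacng4* (0.90 to 0.93) and *Mbd3* to *Nipa2*, *Tmem229a* and *Rhobtb3* (0.87 to 0.88). *Uhrf2* was closest to *Elp2*, *Mpdz* and *Cdc5l* (0.92 to 0.94), *Uhrf1* to *Tab2*, *Homer2* and *Taok2* (0.89 to 0.92) and *Zbtb4* to *Zfp236*, *Dlg4* and *Msl1* (0.92 to 0.93). Within the groups these values were 0.62 to 0.89 for *Mbd1*, 0.71 to 0.83 for *Mbd2* and 0.81 to 0.82 for *Mbd3*. They were 0.92 to 0.93 for *Uhrf2*, 0.80 to 0.85 for *Uhrf1* and 0.91 to 0.93 for *Zbtb4*. Each r was picked as among the highest of 12201 genes, and how high r gets by this choice alone was not computed.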

How the data were processed

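RNA-Seq of 20 samples was used, and the methylation libraries of the study were not analysed here. The authors trimmed reads with Trim Galore 0.4.0 and aligned them to mm10 with STAR 2.5.1b, and the deposited gene counts are whole fragments without normalization. The deposited expected counts (estimated counts), TPM and FPKM were made by the authors with RSEM 1.2.30, the latter values scaled for transcript length. Counts on the strand of the library were used for tests. Symbols were matched for 45968 of 46480 genes, and coordinates are those of Gencode (GRCm38).

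A gene entered the tests when its count was above 10 in 2 or more samples (17040 genes in 18 samples), and it was tested with edgeR 4.0.16 in R 4.3.3, with TMM normalization and quasi-likelihood tests with the 4 groups in one model, and Benjamini-Hochberg adjustment over all genes tested. A region result is the mean of the dorsal minus ventral differences in SH and EE. Standard errors came from the log2 difference and its F statistic. The labels do not say whether pools shared cages or litters, and p-values measure the spread between the pools. Leaving out SH replicate 3 follows the methods of the study, which dropped 1 SH sample for its *Xist* RNA without naming its replicate number in the sources used here, and the number was read from *Xist* itself.

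Both regions were taken from the same mice, but the labels do not say that replicate numbers mark them. Dorsal and ventral samples of one number and housing were taken as one pool because *Xist* stood out under SH number 3 in both regions. Their deviations from group means correlated at -0.13 to 0.31 in the 9 pools (mean 0.13). Between different numbers of one housing these values were -0.30 to 0.31 (mean -0.04), so the ranges overlapped and do not settle the pairing. The EE and SH samples of one number correlated at 0.11 to 0.28 in 8 pairs (mean 0.20), and the replicate number was also taken to pair them. Those of different numbers correlated at -0.33 to 0.35 (mean -0.05). Only 10 of 16 samples correlated best with the sample of their own number, so this pairing is uncertain too. The block was the pool for region and interaction tests and the number for EE tests.

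The readers and the lists of partners and markers were chosen with earlier results of these data known. All 9 readers are named. Of each partner list up to 2 genes in each direction are named, those with the largest region differences among genes passing, with every partner passing for EE, and for each reader the 3 genes of highest Pearson r (log2 CPM with 0.5 added). Outside this rule *Chd3*, which did not pass, is named beside *Chd4* and *Chd5*. A gene of the partner lists is not reported here and entered no count of them. Alternatives were DESeq2 1.42.0, the likelihood ratio test, RLE size factors, other filters, unstranded counts, rounded expected counts, all 20 samples, the replicate block, a joint test of both housings, fits to 1 region, FPKM in place of TPM, and leaving out each pool. The fits were tested on simulated data. Tools in python 3.11.15 were pandas 2.3.3, numpy 2.4.6, scipy 1.17.1 and matplotlib 3.10.9.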

Additional observations from a re-analysis of the deposited data

Results flagged for a closer look

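Among 36 sets of reader and group, 1 sample stood apart from the rest of its group. *Zbtb38* was at 102.9 CPM in dorsal EE replicate 2, while the other 4 dorsal EE samples had 111.4 to 114.0 CPM, a gap of 0.765 of the range of the group. The limit used for such gaps, Dixon's critical value, is passed by chance in about 1 of 20 groups. Without EE replicate 2 the log2 difference of *Zbtb38* between the regions was 0.27 (edgeR adjusted p = 6.20e-07), against 0.28 with it.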

How the results depend on the processing

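The counts of readers that passed between regions stayed within 6 to 8 of 9 when each pool was left out, and within 4 to 6 for EE animals alone, while for SH animals alone the count ranged from 3 to 5, with 3 without SH replicate 1. Counts of 0 for EE in dorsal DG, for EE in ventral DG and for the interaction were the same under every alternative, also with DESeq2 and the likelihood ratio test. With the replicate block 8 readers passed between regions, 5 in SH and 6 in EE, where *Uhrf2* was added overall and *Mbd3* in EE, and 0 passed for EE or the interaction. It changed no other call of a reader. Of 162 region values of single readers under the alternatives, 157 kept their direction and their side of the threshold and 0 changed sign. *Mbd3* lost its call in 3 fits that left out a pool and in the joint test of both housings, where 6 readers passed, and *Uhrf2* gained one without EE replicate 4 and with the block. Of 51 partner genes 36 to 38 passed. The order of levels was the same by FPKM.

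For the region in both housings together, the EE effects and the interaction, the alternatives gave 666 values of single readers. Of these, 29 changed sign, and none of the 29 passed the test. In EE animals alone the region difference of *Zbtb4* also changed sign, with a range of -0.037 to 0.019, without passing. With all 20 samples the EE log2 difference of *Uhrf1* in dorsal DG was 0.0046 and the interaction of *Mbd2* was 0.016, and with the replicate block *Mbd4* was at 0.028 for EE in ventral DG. Over the fits that each left out a pool, the EE difference in dorsal DG was -0.063 to 0.000195 for *Mbd3*, -0.12 to 0.027 for *Uhrf1*, -0.0043 to 0.052 for *Zbtb4* and -0.053 to 0.0023 for *Zbtb38*. In ventral DG it was -0.040 to 0.039 for *Mbd3*, -0.042 to 0.032 for *Mbd4*, -0.073 to 0.0050 for *Mbd5* and -0.083 to 0.000685 for *Uhrf2*. The interaction was -0.036 to 0.023 for *Mbd2*, -0.074 to 0.022 for *Mbd3*, -0.021 to 0.065 for *Uhrf2* and -0.0035 to 0.085 for *Zbtb38*. The cause of these changes was not tested. With 31 to 59 fragments of *Uhrf1* in a sample, its EE effect has the widest interval of the readers. In SH alone *Uhrf1* lost its call in 6 of 18 alternatives, with adjusted p up to 0.137.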

Other observations

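The left-out SH replicate 3 had values of the readers inside the range of the other SH samples in 9 of 18 cases. In the dorsal and then the ventral sample, its *Mbd4* was 10.4 and 6.59 CPM, its *Mbd5* 69.6 and 59.6 CPM, and its *Zbtb38* 113 and 96.1 CPM, each higher in dorsal DG as in the other pools. Its *Mbd1* was below the other SH samples in both regions (22.7 CPM dorsally, 19.2 CPM ventrally), and its ventral *Zbtb4* of 185 CPM was above the 153 to 161 CPM of the other ventral SH samples.

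*Uhrf2* in ventral DG was at 67.1 and 67.5 CPM in SH replicates 4 and 5 and at 70.1 and 64.5 CPM in EE replicates 4 and 5. In SH replicates 1 and 2 it was at 57.3 and 60.5 CPM, and in EE replicates 1, 2 and 3 at 58.1, 56.2 and 59.3 CPM. This was seen after the values were known, and whether replicate numbers stand for a shared day or litter of SH and EE is not given in the sources used here.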
